A study of Mus musculus with 10 samples.

Results

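In a cultured line of mouse myeloid progenitors named ER-Hoxa9-Lys-GFP, of the C57BL/6 strain, iron and heme handling was followed through 10 genes chosen by name. They were the iron importers Tfrc, Slc11a2 and Slc11a1, the ferritin subunits Fth1 and Ftl1, and the iron exporter Slc40a1. The others were the heme oxygenase Hmox1, the biliverdin reductase Blvrb, and the iron sensors Aco1 and Ireb2. All 10 were listed among the 26227 genes of the files, and 9 of the 10 passed the filter on low values and were tested. The cells carry Hoxa9 fused to a hormone-binding domain of the estrogen receptor, so that estradiol (E2) keeps the fusion active and the cells immature, and the Lys-GFP in their name refers to a lysozyme reporter. RNA was sequenced from 5 groups of 2 libraries each: untreated cells kept in E2, cells washed free of E2 for 24 h with 96 h of E2 afterwards, for 40 h with 80 h of E2 afterwards, or for 72 h with 48 h of E2 afterwards, and cells held without E2 for the whole 120 h. Groups are called below by their hours of withdrawal. The groups all shared RPMI medium with serum and a conditioned medium containing stem cell factor. Time since return to E2 therefore shortened as withdrawal lengthened, and these 2 cannot be told apart within the add-back groups. Whether the line is 1 clone, and whether the libraries of a group came from separate cultures, is not given in the labels, and the p-values below may thus reflect technical spread alone.

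Iron enters most cells as transferrin bound to the transferrin receptor, leaves the endosome through a divalent metal transporter, and is stored in ferritin, a shell of heavy and light subunits. A pair of RNA-binding proteins, encoded by Aco1 and Ireb2, bind a hairpin called the iron-responsive element (IRE) when iron is scarce. Binding in the 5' UTR of ferritin and ferroportin mRNAs blocks their translation, and binding in the 3' UTR of transferrin receptor mRNA protects it from decay. Heme is opened by heme oxygenase, which releases its iron, and biliverdin reductases act on the product. Proliferating progenitors take up iron for growth, while phagocytes also move iron out of their phagosomes.

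The hairpins are shown because this system is known to act through them on some of the members. The search alone does not separate regulated members from others. A search of GENCODE M21 transcripts (GRCm38) for C, 5 bases, CAGTGN and 5 bases that pair with the 5 before the loop found 4 sites in the 3' UTR of Tfrc and 1 each in the 5' UTR of Fth1, Ftl1 and Slc40a1. Each run below is 30 bases on the transcript's strand, 5′ to 3′, with the loop in capitals. The Tfrc sites lie at chr16:32631219-32631248, chr16:32631598-32631627, chr16:32631663-32631692 and chr16:32631710-32631739 on the plus strand. Those of Fth1 and Ftl1 lie at chr19:9982732-9982761 on the plus strand and chr7:45459778-45459807 on the minus strand. The Slc40a1 site lies at chr1:45925464-45925493, on the minus strand.
Tfrc 3' UTR, site 1: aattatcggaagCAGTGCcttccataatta
Tfrc 3' UTR, site 2: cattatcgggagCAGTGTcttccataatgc
Tfrc 3' UTR, site 3: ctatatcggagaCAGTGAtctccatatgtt
Tfrc 3' UTR, site 4: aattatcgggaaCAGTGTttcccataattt
Fth1 5' UTR: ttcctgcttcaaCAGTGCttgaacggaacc
Ftl1 5' UTR: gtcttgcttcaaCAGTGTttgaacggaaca
Slc40a1 5' UTR: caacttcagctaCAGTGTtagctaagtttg
Slc11a2 3' UTR, a form other than that measured: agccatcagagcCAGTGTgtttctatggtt

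The Slc11a2 run, at chr15:100395152-100395181 on the minus strand, paired at 4 of its 5 stem positions and belongs to a transcript other than the 1 measured here. The measured form of Slc11a2 held none, nor did Slc11a1, Hmox1, Blvrb, Aco1 or Ireb2. Of 17152 coding transcripts searched, 0.68% held a fully paired site in a UTR, 0.0991% in the 5' UTR and 0.583% in the 3' UTR, and 4.48% held a site with at least 4 of 5 pairs. A match describes the sequence and does not show that a protein binds it.

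Levels are RPKM, read counts scaled by transcript length and library size, which allows genes to be compared per length. Denominators recovered from the values were 173600000 to 204375000 reads per library, and a single read on 2 kb of transcript equalled 0.00245 to 0.00288 RPKM. A gene is called where limma's 2-sided test on log2(RPKM + 1), fitted to 13004 genes and adjusted by Benjamini-Hochberg (BH), gave an adjusted p under 0.05. Fold changes are on that log2 scale, where the added 1 shrinks differences between low values. The 9 tested members were at 1.999 RPKM or more in every library, so none passed the filter through 1 group alone. Summed over 8 progenitor markers, untreated libraries held 1845 and 1809 RPKM and 120 h libraries 131.8 and 96.2 RPKM, whereas 12 neutrophil markers went from 52.3 and 60.3 to 25560 and 25564 RPKM. In such bulk samples, fewer cells of a type and less RNA per cell cannot be told apart.

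Cells returned to E2 after 72 h held the highest transferrin receptor mRNA and the lowest ferritin heavy chain mRNA of the 5 groups, and cells without E2 for 120 h held the highest Slc11a1, Ftl1, Hmox1 and Blvrb mRNA. Against untreated cells, 8 of the 9 tested members were called at 72 h, 3 higher and 5 lower, where 43.9% of all genes tested were called, 21.6% higher and 22.3% lower. At 120 h, 7 of 9 were called, 4 higher and 3 lower, but 80.3% of all genes were called too, 27.5% higher and 52.7% lower, so the count at 120 h is near the background. Both contrasts use the same untreated libraries. The members were chosen with earlier results of these data known, so a count above the share of all genes is no independent support. The median log2 difference of the 9 was -0.35 at 72 h against 0.02 over all genes, and 0.10 at 120 h against -0.36 over all genes.

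**Figure D1:**
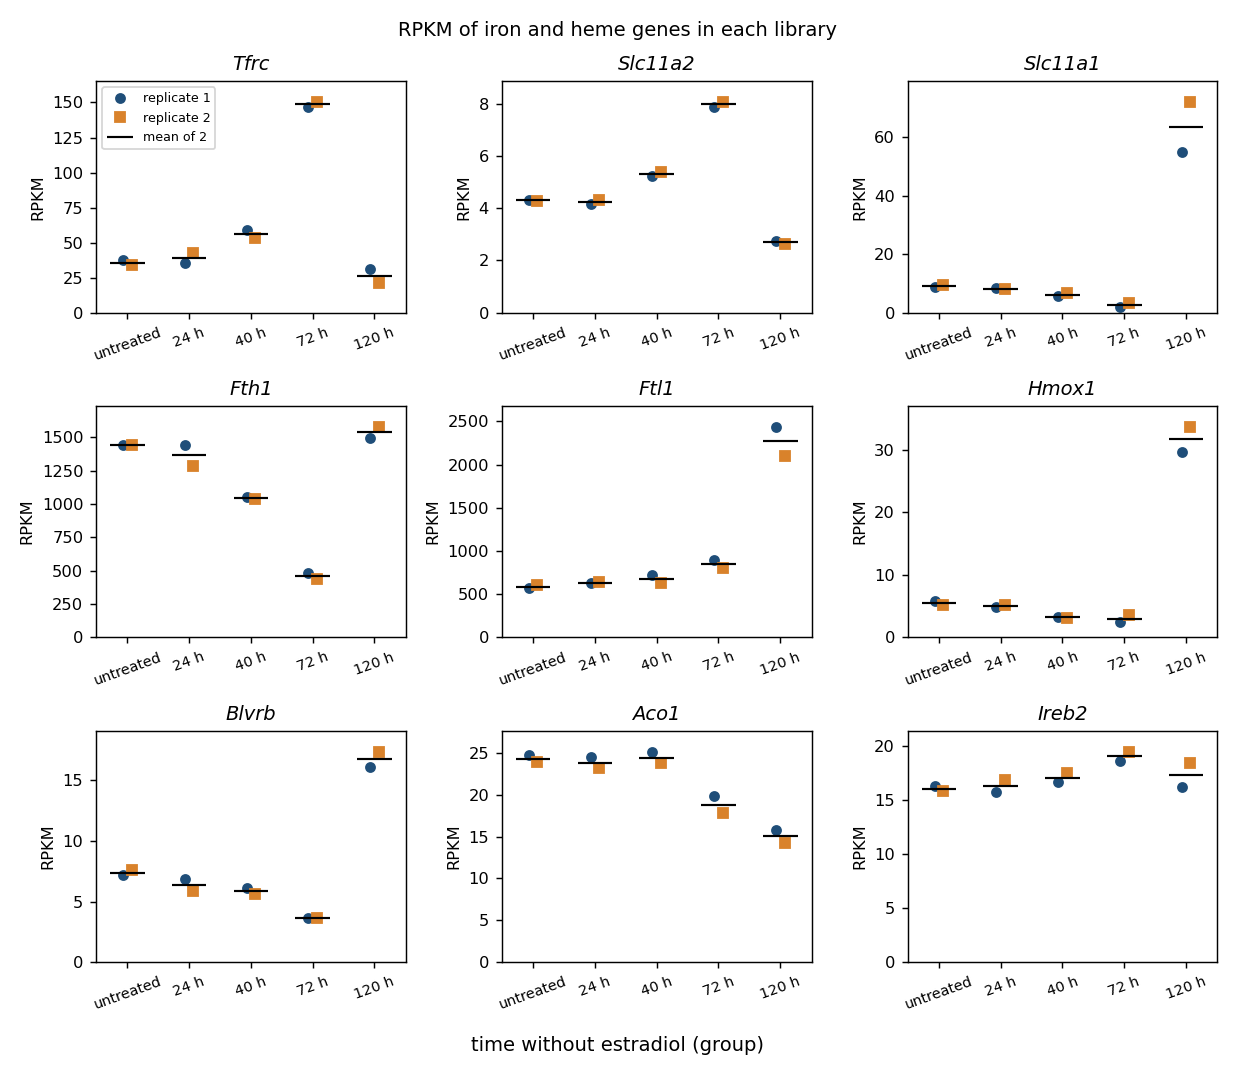
RPKM of the 9 tested members in each library (vertical axes, linear, from 0) by group (horizontal axis), with circles for replicate 1, squares for replicate 2 and a line at the mean of 2. Tfrc peaked at 147 and 150 RPKM in the 72 h group, where Fth1 was lowest at 483 and 438 RPKM.

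Tfrc (ENSMUSG00000022797, chr16:32608920-32632794, plus strand, 19 exons) encodes transferrin receptor 1, which brings transferrin-bound iron into the cell. It measured 37.7 and 33.7 RPKM in untreated libraries, 35.3 and 42.8 in the 24 h group, 58.6 and 53.0 in the 40 h group, 147 and 150 in the 72 h group, and 31.1 and 21.1 in the 120 h group. The 72 h libraries were far above all others and the 40 h libraries stood above the untreated, 24 h and 120 h libraries, while the untreated and 24 h ranges overlapped. The 72 h mean of 148.7 ± 2.28 RPKM (SD, n = 2) was 4.16 times the untreated mean of 35.7 ± 2.80, a log2 difference of 2.03 (SE 0.17, limma adjusted p = 4.51e-05). From 40 h to 72 h Tfrc rose by 1.40 on the log2 scale (adjusted p = 0.000608). The 40 h difference of 0.63 (SE 0.17) missed the threshold (adjusted p = 0.0874). At 120 h Tfrc fell by 0.46 (SE 0.17, adjusted p = 0.0351). That call held in 10 of 21 alternative settings. It ended under both other scalings, with a value of -0.03 (adjusted p = 0.867) under median-of-ratios scaling, and when any 1 of 5 libraries was left out. These were both untreated libraries, both 40 h libraries and replicate 2 of the 120 h group, without which the difference was -0.19 (adjusted p = 0.174).

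Slc11a2 (ENSMUSG00000023030, chr15:100387898-100425072, minus strand, 17 exons) encodes the divalent metal transporter that carries iron out of the endosome. Its levels were 4.31 and 4.28 RPKM untreated, 4.18 and 4.30 at 24 h, 5.24 and 5.40 at 40 h, 7.88 and 8.06 at 72 h, and 2.74 and 2.62 at 120 h. The order of groups was that of Tfrc from 40 h on, with 72 h highest and 120 h lowest, and the untreated and 24 h libraries again overlapped. Slc11a2 rose by 0.76 at 72 h (SE 0.07, limma adjusted p = 7.74e-05) and fell by 0.52 at 120 h (SE 0.07, adjusted p = 0.000177). Under median-of-ratios scaling the 120 h difference was -0.18 (adjusted p = 0.0361). The form with the IRE-like run was listed at 0.598 to 0.653 times the RPKM of the measured form in all 10 libraries. Forms of a gene share reads in these files, so this ratio does not measure splicing. Gm5475 overlaps Slc11a2 on the other strand, and use of strand in counting is not given in the sources used here.

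Slc11a1 (ENSMUSG00000026177, chr1:74375195-74386062, plus strand, 15 exons), also called Nramp1, encodes the phagosomal relative of Slc11a2 that moves divalent metals out of the phagosome of macrophages and neutrophils. It measured 8.86 and 9.56 RPKM untreated, 8.28 and 8.07 at 24 h, 5.79 and 6.57 at 40 h, 2.00 and 3.21 at 72 h, and 54.9 and 71.9 at 120 h. Neither library of any group overlapped another group, with the lowest level at 72 h and the highest at 120 h. It fell by 1.52 at 72 h (SE 0.17, limma adjusted p = 0.000243) and rose by 2.65 at 120 h (SE 0.17, adjusted p = 2.66e-06), when its mean was 6.89 times the untreated mean. The 2 Slc11 family members thus moved in opposite directions in both groups.

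Fth1 (ENSMUSG00000024661, chr19:9980598-9985098, plus strand, 4 exons) encodes the ferritin heavy chain, which oxidises iron as it enters the shell. It was among the most abundant coding mRNAs, ranked 42 of 17251 in untreated cells. Its levels were 1443 and 1440 RPKM untreated, 1443 and 1286 at 24 h, 1052 and 1035 at 40 h, 483 and 438 at 72 h, and 1494 and 1577 at 120 h. The 40 h and 72 h groups lay below all others without overlap, and the 24 h group overlapped the untreated libraries. At 72 h Fth1 fell by 1.65 (SE 0.15, limma adjusted p = 5.88e-05), its mean of 460 ± 31.6 RPKM being 3.13 times lower than the untreated mean, and its rank was 128. The fall from 40 h to 72 h was 1.18 (adjusted p = 0.000647). The 40 h difference against untreated cells, -0.47, missed the threshold (adjusted p = 0.134). At 120 h the difference was 0.09 (SE 0.15, adjusted p = 0.584), which became a called difference of 0.53 (adjusted p = 0.012) under median-of-ratios scaling and 0.44 (adjusted p = 0.00273) under quantile normalization.

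Ftl1 (ENSMUSG00000050708, chr7:45457944-45459884, minus strand, 4 exons) encodes the ferritin light chain, which aids formation of the iron core. It measured 568 and 602 RPKM untreated, 630 and 636 at 24 h, 722 and 631 at 40 h, 898 and 800 at 72 h, and 2436 and 2104 at 120 h. The 72 h and 120 h libraries stood above all shorter withdrawals, and the 24 h and 40 h ranges overlapped. Ftl1 rose by 0.54 at 72 h (SE 0.15, limma adjusted p = 0.0215), a call lost when any 1 library of either group was left out (adjusted p up to 0.133) and without filtering low values (adjusted p = 0.0612). It rose by 1.95 at 120 h (SE 0.15, adjusted p = 6.44e-06) to 3.88 times the untreated mean and rank 14 of 17251. Ftl1 shared 78.9% of its 50-base windows with 15 other genes. The largest overlap was with Ftl1-ps1, at 73.4%, which was not analysed here, and the next was with Gm15590, at 34.6%, which held 20.4 to 87.7 RPKM. Gm22133 lies within Ftl1 on the same strand and Gm10252 overlaps it on the other. The Ftl1 value is therefore uncertain as that of a single gene, while Fth1 shared only 6.6% of its windows, with Gm6977 at 0.213 to 1.25 RPKM.

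In RPKM the pair of ferritin subunits changed in opposite directions at 72 h, Fth1 falling and Ftl1 rising. The Ftl1 call was lost when any 1 untreated or 72 h library was left out. The Fth1 to Ftl1 ratio of RPKM within a library was 2.54 and 2.39 untreated, 2.29 and 2.02 at 24 h, 1.46 and 1.64 at 40 h, 0.537 and 0.548 at 72 h, and 0.613 and 0.750 at 120 h. Heavy chain mRNA exceeded light chain mRNA in all 6 libraries of the untreated, 24 h and 40 h groups and was below it in all 4 of the 72 h and 120 h groups. Added together, the 2 mRNAs took 0.458% and 0.458% of coding RPKM in untreated libraries, 0.332% and 0.316% at 72 h, and 0.930% and 0.969% at 120 h. At 120 h both subunits were above their untreated levels in RPKM, Fth1 at 1494 and 1577 (not called) and Ftl1 at 2436 and 2104 (called). The ratio of Tfrc to Fth1, an uptake mRNA against a storage mRNA, was 0.0261 and 0.0234 untreated, 0.305 and 0.343 at 72 h, and 0.0208 and 0.0134 at 120 h. These ratios are given as descriptions and were not tested. Ftl1 shared 78.9% of its 50-base windows with other genes. The 72 h rise of Ftl1, which subunit mRNA was higher, and the summed share are therefore uncertain.

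**Figure D2:**
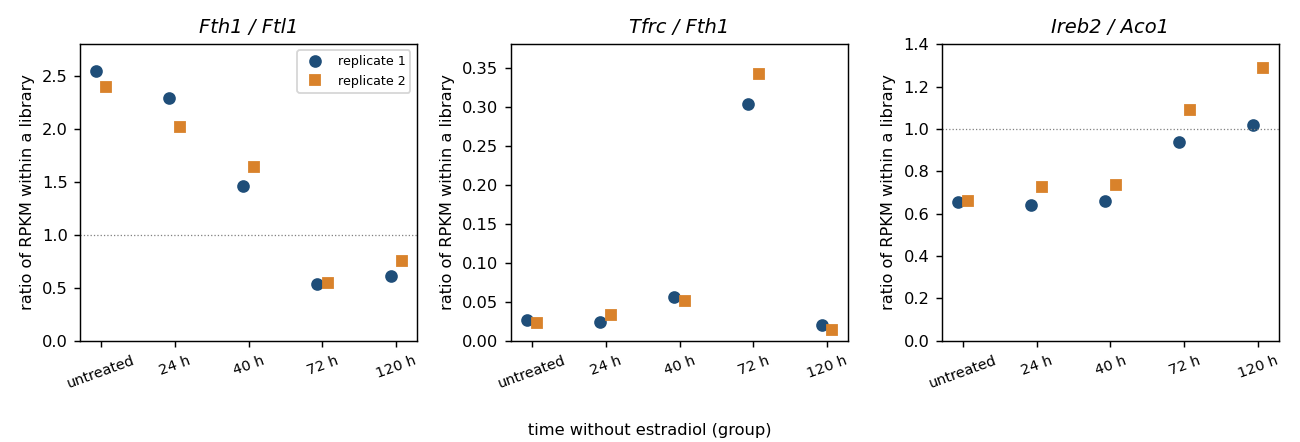
Ratio of RPKM within each library (vertical axes, linear, from 0) by group (horizontal axis), with circles for replicate 1, squares for replicate 2 and a dotted line at equal levels. The Fth1 to Ftl1 ratio went from 2.54 and 2.39 untreated to 0.537 and 0.548 at 72 h, and the Tfrc to Fth1 ratio was highest at 72 h, at 0.305 and 0.343. Ftl1 shared 78.9% of its 50-base windows with other genes, so its ratio to Fth1 is uncertain.

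Slc40a1 (ENSMUSG00000025993, chr1:45908068-45926523, minus strand, 8 exons) encodes ferroportin, the known iron exporter of mammalian cells. It was listed at 0 and 0.003 RPKM untreated, 0.012 and 0 at 24 h, 0 and 0.003 at 40 h, 0.009 and 0 at 72 h, and 0.019 and 0.006 at 120 h. These values correspond to 0 to 11 reads per library, and each group other than the 120 h group had 1 library with 0 reads. Slc40a1 was not tested. The export mRNA was thus at or near 0 while Tfrc and both ferritin mRNAs were abundant in the same libraries.

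Hmox1 (ENSMUSG00000005413, chr8:75093621-75100589, plus strand, 5 exons) encodes the inducible heme oxygenase. It measured 5.75 and 5.20 RPKM untreated, 4.91 and 5.22 at 24 h, 3.34 and 3.16 at 40 h, 2.49 and 3.51 at 72 h, and 29.7 and 33.7 at 120 h. The 40 h and 72 h libraries overlapped each other and lay below the untreated and 24 h libraries, and the 120 h libraries were far above all. Hmox1 fell by 0.61 at 40 h (SE 0.13, limma adjusted p = 0.0409) and by 0.70 at 72 h (SE 0.13, adjusted p = 0.00289), and rose by 2.33 at 120 h (SE 0.13, adjusted p = 9.93e-07) to 5.79 times the untreated mean. It was the only member of the 9 called at 40 h, where 4.28% of all genes were called, 0.93% higher and 3.35% lower, and 6 of the 9 had an unadjusted p under 0.05. That call held in 14 of 22 alternative settings. It ended with a pseudocount of 0.1 (limma adjusted p = 0.0503) and without filtering low values (adjusted p = 0.0887). It also ended when any 1 untreated, 24 h or 40 h library was left out, with differences of -0.54 to -0.67.

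Blvrb (ENSMUSG00000040466, chr7:27447978-27466144, plus strand, 5 exons) encodes biliverdin reductase B, also known as a flavin reductase. Its levels were 7.20 and 7.56 RPKM untreated, 6.82 and 5.85 at 24 h, 6.14 and 5.64 at 40 h, 3.65 and 3.62 at 72 h, and 16.1 and 17.4 at 120 h. The 72 h libraries were lowest and the 120 h libraries highest, and the 24 h and 40 h ranges overlapped. It fell by 0.85 at 72 h (SE 0.09, limma adjusted p = 0.000159) and rose by 1.08 at 120 h (SE 0.09, adjusted p = 1.01e-05). The mRNAs of another heme oxygenase and another biliverdin reductase were also present. Hmox2, the constitutive heme oxygenase, had 45.7 and 44.2 RPKM untreated and 33.3 and 31.8 at 120 h, and Blvra, biliverdin reductase A, had 15.1 and 14.3 untreated and 28.6 and 26.3 at 120 h. Per length, Hmox2 mRNA exceeded Hmox1 mRNA by 45.7 to 5.75 RPKM in untreated replicate 1 and was close to it at 120 h, with 33.3 and 31.8 RPKM against 29.7 and 33.7.

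Aco1 (ENSMUSG00000028405, chr4:40143081-40198338, plus strand, 21 exons) encodes iron regulatory protein 1, which serves as cytosolic aconitase when it holds an iron-sulfur cluster. It measured 24.8 and 23.9 RPKM untreated, 24.5 and 23.2 at 24 h, 25.1 and 23.7 at 40 h, 19.8 and 17.8 at 72 h, and 15.8 and 14.2 at 120 h. The untreated, 24 h and 40 h groups overlapped and the 72 h and 120 h groups each lay lower. It fell by 0.35 at 72 h (SE 0.08, limma adjusted p = 0.0107), a call lost without replicate 1 of the untreated group or replicate 2 of the 72 h group (adjusted p up to 0.0829), and by 0.66 at 120 h (SE 0.08, adjusted p = 0.000125). Under median-of-ratios scaling the 120 h difference was -0.24 (adjusted p = 0.0381).

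Ireb2 (ENSMUSG00000032293, chr9:54863789-54912530, plus strand, 22 exons) encodes iron regulatory protein 2, which is controlled by degradation when iron is plentiful. Its levels were 16.3 and 15.8 RPKM untreated, 15.7 and 16.8 at 24 h, 16.6 and 17.4 at 40 h, 18.6 and 19.4 at 72 h, and 16.1 and 18.4 at 120 h. It varied least of the 9 tested members, only the 72 h libraries standing clear of the rest. The 72 h difference of 0.23 (SE 0.08, limma adjusted p = 0.0510) and the 120 h difference of 0.10 (SE 0.08, adjusted p = 0.298) were not called. The 72 h difference was called in 7 of 21 alternative settings (adjusted p from 0.0109 to 0.212 over all), and median-of-ratios scaling made the 120 h difference a called 0.52 (adjusted p = 0.000537). The ratio of Ireb2 to Aco1 RPKM within a library was 0.657 and 0.661 untreated, 0.938 and 1.09 at 72 h, and 1.02 and 1.29 at 120 h. With Aco1 falling and Ireb2 not called, the 2 sensor mRNAs came to similar levels in the latter groups.

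**Figure D3:**
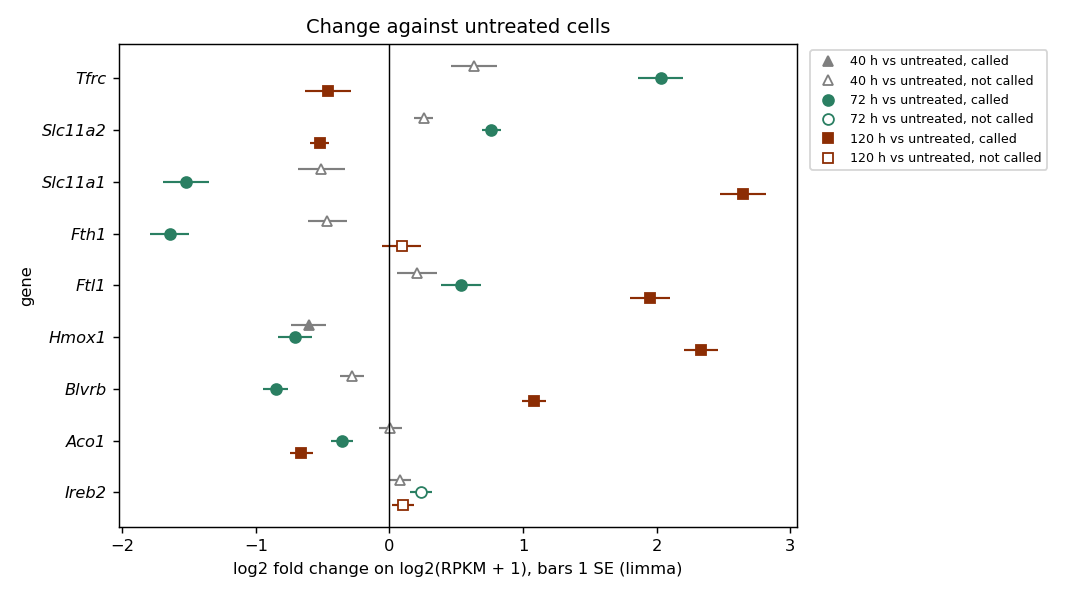
Log2 differences of the 9 tested members from untreated cells on the log2(RPKM + 1) scale (horizontal axis) at 40 h (triangles), 72 h (circles) and 120 h (squares), with bars of 1 SE from limma and filled symbols for called differences. At 72 h Tfrc was at 2.03 and Fth1 at -1.65, and at 120 h Slc11a1 was at 2.65 and Hmox1 at 2.33.

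After 24 h of withdrawal and 96 h of E2, no member was called and 0% of all genes were. Member differences ranged from -0.19 to 0.12 on the log2 scale, limma gave 0 of the 9 an unadjusted p under 0.05, against 365 of the 13004 genes, and voom on recovered reads called 0 members. From 40 h to 72 h, 6 of 9 members were called, 2 higher and 4 lower, against 27.7% of all genes, 13.9% higher and 13.8% lower. Between the 72 h and 120 h groups themselves, 8 of 9 were called, 5 higher and 3 lower at 120 h, against 77.4% of all genes, 26.4% higher and 51% lower, which is again near the background. The differences of largest size were 4.17 for Slc11a1 (limma adjusted p = 5.90e-07), 3.04 for Hmox1 (adjusted p = 6.23e-07) and -2.49 for Tfrc (adjusted p = 5.12e-06). Ftl1, at 1.42, and Fth1, at 1.74, both rose from 72 h to 120 h. Aco1 fell by 0.31 there (adjusted p = 0.0102), but was at 0.11 and not called (adjusted p = 0.287) under median-of-ratios scaling.

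RPKM as deposited placed the median gene at -0.36 in the 120 h comparison. Median-of-ratios scaling moved that median to -0.002 and raised the higher share of calls from 34.3% to 50.5%, and quantile normalization gave -0.184 and 41.7%. For 120 h against 72 h the higher share went from 34.1% to 53.4% and 42%. The rises of Slc11a1, Ftl1, Hmox1 and Blvrb and the falls of Slc11a2 and Aco1 at 120 h kept their direction and call under both scalings.

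Other genes of these pathways moved in both directions. Their counts stand beside 21.6% of all genes called higher and 22.3% called lower at 72 h. At 120 h these shares were 27.5% and 52.7%, all in RPKM as deposited. Under median-of-ratios scaling, 50.5% of the 120 h calls over all genes were higher, against 34.3% as deposited. No list was tested as a set against these shares. Among 9 tested genes of iron import other than the members, 1 rose and 4 fell at 72 h (median -0.28), and 3 rose and 5 fell at 120 h (median -0.42; 3 and 4, median 0.01, under median-of-ratios scaling). Tfr2, the transferrin receptor known for iron sensing in liver and erythroid cells, fell from 19.6 and 23.1 RPKM untreated to 9.02 and 9.20 at 72 h and 2.60 and 1.86 at 120 h. The log2 differences were -1.14 and -2.80, so the 2 transferrin receptors had opposite signs at 72 h. Steap3, an endosomal ferric reductase of the transferrin cycle, fell by 2.19 at 120 h, and Slc25a37, the mitochondrial iron importer mitoferrin 1, rose by 1.29 at 72 h. Snx3 at 72 h (-0.28) and Slc25a28 at 120 h (-0.35) were not called.

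Of 6 tested genes of ferritin turnover, iron chaperoning and iron sensing, 2 rose and 0 fell at 72 h (median 0.30), and 3 rose and 2 fell at 120 h (4 and 0 under median-of-ratios scaling). Ncoa4, the receptor that delivers ferritin to autophagy, rose from 54.0 and 54.8 RPKM untreated to 83.7 and 81.2 at 72 h and 135 and 105.6 at 120 h. Fbxl5, the ubiquitin ligase subunit that targets Ireb2 protein when iron is plentiful, rose by 1.76 at 120 h. Herc2, a ubiquitin ligase reported to act on Ncoa4, rose by 0.66 at 72 h, a call that held in 16 of 21 alternative settings and was lost without any 1 of the untreated or 72 h libraries (limma adjusted p up to 0.114). Pcbp2, an iron chaperone, was at -0.06 at 72 h and not called.

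In heme synthesis, 5 of 13 tested genes rose and 1 fell at 72 h (median 0.17), and 2 rose and 6 fell at 120 h (median -0.26; 5 and 5, median 0.18, under median-of-ratios scaling). Alas1, the housekeeping form of the rate-limiting enzyme, measured 17.1 and 18.7 RPKM untreated, 18.1 and 18.4 at 24 h, 30.3 and 23.7 at 40 h, 92.3 and 93.9 at 72 h, and 106 and 80.4 at 120 h. Both late groups lay above all other libraries and overlapped each other, with limma log2 differences from untreated of 2.32 and 2.31 (adjusted p = 9.17e-06 and 2.24e-06). The erythroid form, Alas2, was at 0.042 to 0.092 RPKM in every library. Cpox, a late step of the pathway, fell by 2.04 at 120 h, and Slc25a38, a mitochondrial glycine carrier, rose by 0.96 at 72 h.

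Among 10 tested genes of heme transport and breakdown, 3 rose and 3 fell at 72 h and 4 rose and 4 fell at 120 h (6 and 3 under median-of-ratios scaling). Hp, the plasma hemoglobin-binding haptoglobin that neutrophil precursors also make, went from 2.94 and 4.47 RPKM untreated to 79.5 and 77.5 at 72 h and 547 and 462 at 120 h. Pgrmc1, a heme-binding membrane protein, fell by 1.12 at 72 h and 2.31 at 120 h. Iron-sulfur cluster assembly had 5 higher and 5 lower of 25 at 72 h (median 0.06). At 120 h it had 3 higher and 19 lower (median -0.80; 5 and 16 under median-of-ratios scaling). Of all genes tested, 80.3% were called at 120 h, with 27.5% of all genes tested called higher and 52.7% lower. Fdxr, ferredoxin reductase, fell by 1.31 at 72 h and 2.54 at 120 h, and Hspa9, the mitochondrial chaperone of cluster transfer, fell by 2.44 at 120 h.

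**Figure D4:**
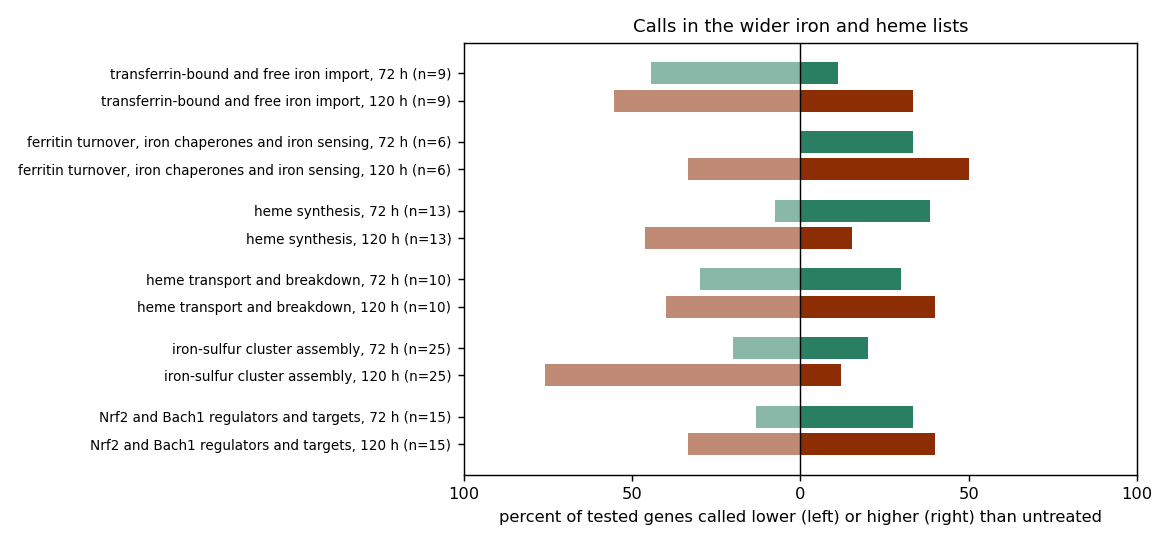
Percent of the tested genes of each list (horizontal axis, n in the row labels) called lower (left, pale) or higher (right, dark) than untreated cells at 72 h and 120 h. Of 25 iron-sulfur cluster assembly genes, 19 were called lower and 3 higher at 120 h. Of all genes tested, 22.3% were called lower and 21.6% higher at 72 h, and 52.7% and 27.5% at 120 h.

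Markers of cell types also changed between groups, some lists rising, some falling and some split. Of all genes tested, 21.6% were called higher and 22.3% lower at 72 h, and 27.5% and 52.7% at 120 h. All 12 neutrophil markers were called higher at 120 h and 11 at 72 h, where their summed level was 484 and 763 RPKM. Ltf among them passed the filter on low values only through the 72 h and 120 h libraries. Monocyte markers, 10 genes, summed to 347 and 363 RPKM untreated, 1012 and 1072 at 72 h and 1538 and 1493 at 120 h, with 6 higher and 1 lower of 9 tested at 72 h and 8 and 1 at 120 h. The 13 listed markers of iron-recycling macrophages, Hmox1 among them, summed to 11.6 and 10.8 RPKM untreated, 33.4 and 42.6 at 72 h and 301 and 344 at 120 h. Of the 8 tested, 7 were called higher and 1 lower at 120 h, Adgre1 (F4/80) alone reaching 199 and 215 RPKM, while Spic was at 0 and 0.028 RPKM and Timd4 at 0 in both 120 h libraries. Mast cell, basophil and eosinophil markers, 12 genes, summed to 225 and 254 RPKM untreated, 1559 and 1383 at 72 h and 623 and 406 at 120 h, with 4 higher and 5 lower of 9 tested at 72 h and 5 and 4 at 120 h. The eosinophil granule gene Prg2 made up 1484 and 1306 RPKM of the 72 h sums. Erythroid and megakaryocyte markers, 16 genes, summed to 9.51 to 31.3 RPKM over all libraries, with 2 higher and 2 lower of the 4 tested at both times, and Slc4a1 was at 0 in 9 of 10 libraries. Of 8 progenitor markers, 6 were lower at 72 h and 8 at 120 h. The part of any of these cells in the member changes was not tested. Of 9 tested genes of RNA quality and stress, 2 rose and 2 fell at 72 h, and 7 rose and 2 fell at 120 h, and their part was not tested either.

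Across the 10 libraries, Tfrc and Slc11a2 had a Pearson correlation of 0.95 on the log2(RPKM + 1) scale, Slc11a1 and Blvrb of 0.99, Hmox1 and Blvrb of 0.95, and Tfrc and Fth1 of -0.98. Fth1 and Ftl1 were at 0.16, and Aco1 and Ireb2 at -0.53. These describe 5 groups of 2 libraries and are given without p. Among coding genes at 5 RPKM or more in some group, the profiles most like that of Tfrc were those of Kat14 (0.998), Fam206a (0.995) and Xpo5 (0.990). Fth1 was most like B2m (0.998), Rnf144a (0.991) and Il2rg (0.990), and Ftl1 was most like Bin3 (0.999), G6pdx and Rhog (both 0.997). For Slc11a1 they were Slc15a3, Sh3bp5 and Rhof (0.995 to 0.997), for Hmox1 Fam102a, Anxa4 and Irgm1 (each 0.997) and for Blvrb Gsdme, Pdlim2 and Sema4d (0.991 to 0.993). Slc11a2 was most like D16Ertd472e, Gtf2h1 and Mrs2 (0.991 to 0.992), Aco1 was most like Tuba8, Frg1 and Sod1 (0.991 to 0.993), and Ireb2 was most like Thoc2, Ppil4 and Wapl (0.980 to 0.989).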

How the data were processed

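The authors deposited RPKM per transcript, 1 table for each of 10 libraries, per the file headers. Per the submitters' processing notes, reads were aligned with STAR to GRCm38; the sources used here give neither its version nor the counting program, annotation release, strand use or filter. RNA came from an RNeasy kit and libraries from a TruSeq kit, per the labels. Of 79535 listed transcripts, 77720 (97.7%) matched GENCODE M21, and the 1815 others held 2.64 to 3.24% of RPKM. Each of 26227 genes (17251 coding) was represented by 1 transcript chosen from annotation (coding, principal, longest). Values of transcripts up to 220 bases were whole numbers of reads within 0.02 reads in 99.66 to 100% of 578 to 818 values per library, which gave the denominators.

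Genes at 1 RPKM or more in at least 2 libraries, 13004 in all, were tested on log2(RPKM + 1) by limma (version 3.58.1, R version 4.3.3; moderated with a mean-variance trend), group as the only term, all 10 libraries together (5 residual and 3.04 prior degrees of freedom), in 6 comparisons, BH adjusted over all genes. The pipeline was tested on simulated data. Alternatives covered pseudocount, filter, scaling, isoform summing, voom on recovered reads, a replicate block, fewer groups and leaving out each library.

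The members and gene lists were chosen with earlier results of these data known. The rule for named genes took every member, and from each list up to 2 called genes with the largest change and a mean of at least 2 RPKM in the higher group, plus the uncalled gene of highest RPKM, and 3 coding genes of most similar profile per member. Genes named outside it (Alas2, Hmox2, Blvra, Spic, Timd4, Slc4a1 and genes sharing sequence with members) were chosen after their values were seen. Some genes that the rule named are left out.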

Additional observations from a re-analysis of the deposited data

Results flagged for a closer look

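For 6 members the difference from untreated cells was called at 72 h and had the opposite sign at 120 h, and the difference between the 72 h and 120 h groups, tested directly with limma, was called. Of all 13004 genes tested, 1562 (12%) showed this pattern, and 77.4% were called between the 72 h and 120 h groups. The 120 h minus 72 h log2 difference was -2.49 for Tfrc (adjusted p = 5.12e-06), -1.28 for Slc11a2 (adjusted p = 1.91e-06), 4.17 for Slc11a1 (adjusted p = 5.90e-07), 1.74 for Fth1 (adjusted p = 1.44e-05), 3.04 for Hmox1 (adjusted p = 6.23e-07) and 1.93 for Blvrb (adjusted p = 9.62e-07). Both libraries of 1 group lay beyond both of the other for each gene. The genes were picked by that called difference, so this separation is no further support. For Fth1 the 120 h difference from untreated cells, 0.09, was itself not called. That of Tfrc, -0.46, was called in 10 of 21 alternative settings. Under median-of-ratios scaling it was -0.03 (limma adjusted p = 0.867). The 72 h group had E2 for its last 48 h and the 120 h group had none, so withdrawal time and the presence of E2 at harvest cannot be told apart.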

How the results depend on the processing

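The calls of Tfrc, Slc11a1, Slc11a2, Fth1, Hmox1 and Blvrb at 72 h, and of Slc11a1, Slc11a2, Ftl1, Hmox1, Blvrb and Aco1 at 120 h, held in all 21 alternatives run. The member count at 40 h, 1 as reported, was 0 with a pseudocount of 0.1 or no filter, 2 with voom, 4 with only the 2 groups compared or without the 120 h group, and 6 with array weights. Over all genes, 24 h calls went from 0 to 2 (pseudocount 0.1), 3 (no filter; without the 120 h group), 4 (only the 2 groups compared) and 34 (array weights). Calls at 40 h went from 557 to 1988, 1797 and 2859 with only the 2 groups compared, without the 120 h group and with array weights, and 72 h against 40 h calls from 3604 to 6082 without the 120 h group. The fits without the 120 h or 72 h group and with array weights were chosen after seeing the data. Leaving out 1 library gave 0 to 0, 0 to 4, 6 to 9, 6 to 8, 5 to 7 and 7 to 9 called members at 24 h, 40 h, 72 h, 120 h, 72 h against 40 h and 120 h against 72 h, and 0 to 3, 41 to 1789, 3583 to 7877, 9532 to 10909, 1977 to 6082 and 9136 to 10490 genes in all. Signs turned for uncalled values near 0 when 1 library was left out: Aco1 at 40 h ranged from -0.034 to 0.046, Pcbp2 at 72 h from -0.135 to 0.021, Hmox1 in 72 h against 40 h from -0.285 to 0.086, and at 120 h Tspo from -0.039 to 0.275, Slc48a1 from -0.20 to 0.33, Isca2 from -0.15 to 0.17 and Smad4 from -0.0027 to 0.264. Quantile normalization turned Pcbp2 at 72 h (0.098), and median-of-ratios scaling turned Slc25a28 at 120 h (0.067). In 120 h against 72 h, median-of-ratios scaling turned Aco1 (0.11, adjusted p = 0.287) and Ireb2 (0.29, adjusted p = 0.0138, called), and quantile normalization turned Ireb2 (0.042). The cause was not tested. Deviations of libraries with the same number correlated positively in all 10 group pairs (0.0341 to 0.639), a hint from the data that the numbers may mark something shared. The labels name no such link and 2 of the 10 were under 0.1, short of the rule that every pair exceed 0.1, so the fit without the block was kept. With a replicate block 9 members were called at 72 h, Ireb2 being added (adjusted p = 0.0308), and 693 genes at 40 h, and no other member count changed. With 2 libraries a group, differences of the size of that of Ireb2 at 72 h were called under 7 of 21 settings and not under the others. Slc40a1 had 11 reads or fewer in libraries of 173600000 to 204375000 reads, so its level was near 0 and differences between groups cannot be read from it.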

Other observations

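Genes of the Nrf2 and Bach1 system, whose factors are known to act on Hmox1 and ferritin genes, were not uniform. Of 15 tested, 5 rose and 2 fell at 72 h (median 0.19), and 6 rose and 5 fell at 120 h (median 0.17; 9 and 1 under median-of-ratios scaling). Of all genes tested, 43.9% were called at 72 h, 21.6% higher and 22.3% lower. At 120 h 80.3% were called, 27.5% higher and 52.7% lower, all in RPKM as deposited. Under median-of-ratios scaling, 50.5% of the 120 h calls over all genes were higher, against 34.3% as deposited. Gsr, glutathione reductase, went from 27.8 and 30.4 RPKM untreated to 60.4 and 49.4 at 40 h, 176 and 168 at 72 h and 269 and 236 at 120 h. Its limma log2 differences at 72 h and 120 h were 2.52 and 3.07. G6pdx, which supplies NADPH, rose by 2.70 at 120 h. Sqstm1, an autophagy receptor, fell by 1.00 at 72 h and was at 0.17 and not called at 120 h.

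Of 5 listed genes for secreted iron or siderophore binding proteins, 2 were tested, both of neutrophil granules, and these rose at 72 h and 120 h. Of all genes tested, 21.6% were called higher at 72 h and 27.5% at 120 h. Ltf passed the filter on low values only through the 72 h and 120 h libraries, so its being tested depended on the groups where it was high. Ltf, lactoferrin, was at 0.232 and 0.143 RPKM untreated, 16.6 and 33.9 at 72 h and 2188 and 2405 at 120 h. Lcn2, which binds iron-carrying siderophores, was at 32.0 and 37.5 RPKM untreated, 43.2 and 47.5 at 72 h and 3405 and 3248 at 120 h. Its 72 h difference of 0.38 and that of Ltf, 4.38, were both called by limma, and at 120 h they were 6.54 and 10.92. The 72 h call of Lcn2 was lost without replicate 1 of the untreated group or replicate 2 of the 72 h group (adjusted p up to 0.135), and that of Ltf held in all 21 alternative settings. Both genes are also in the neutrophil marker list.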
